A study of Homo sapiens with 12 samples.

Results

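The genes of collagen synthesis were examined in RNA-seq libraries of MIAPaCa2, an established PDAC (pancreatic ductal adenocarcinoma) cell line. The rule took every gene symbol of the form COL, number, A, number, the alpha subunits of prolyl 4-hydroxylase, the lysyl hydroxylases, the lysyl oxidases, and the named chaperones and processing enzymes SERPINH1, P4HB, BMP1, CRTAP, P3H1 (LEPRE1 in older lists), PCOLCE, PPIB and SPARC. It found 63 of the 26475 gene symbols, namely 44 collagen chain genes and 19 genes of enzymes, chaperones and binding proteins. The rule reads symbols alone, but it was chosen with earlier results of these data known. Of the 63, 40 passed edgeR's filter on low counts and were tested, 23 of them collagen chains and 17 of them enzymes and chaperones.

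The libraries fall into 4 groups of 3 replicates. Parental cells were either left as vehicle controls, for which GEO's treatment label reads untreated, or given oxamate, an inhibitor of lactate dehydrogenase A (LDHA). Oxamate-resistant cells, a polyclonal population that the authors selected by prolonged culture of the same line in sodium oxamate, were likewise vehicle-treated or oxamate-treated. All were grown in DMEM with serum, and no genetic change was introduced in any group. No source says that the replicates were separate cultures, so the p-values measure only the spread between these libraries. The comparisons ask how collagen genes responded to oxamate in each cell population, how the populations differed, and whether their responses differed.

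Library totals of the expected counts ranged from 46698729 to 114222169, and every parental library was deeper than every resistant library. Levels are in CPM, counts per 1000000 after TMM scaling, and 3 counts, taken as the floor of detection, correspond to between 0.0283 and 0.0581 CPM, which covers counting error only. The nuclear RNA MALAT1 set some libraries apart. It stood at 183 to 199.4 CPM in vehicle-treated parental cells, at 289, 281 and 596 CPM in oxamate-treated parental cells, at 273, 244 and 597 CPM in vehicle-treated resistant cells, and at 577 to 742 CPM in all oxamate-treated resistant libraries. The third library of oxamate-treated parental cells and the third library of vehicle-treated resistant cells thus stood apart from their groups, and calls that changed without either of them are given both ways. LDHA mRNA lay at 1059 to 1086 CPM in parental cells after vehicle and at 1546 to 1701 CPM after oxamate, and at 944 to 969.9 CPM and 1198 to 1223 CPM in resistant cells.

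The libraries carried epithelial keratins (KRT8, KRT18 and KRT19) and vimentin (VIM), while EPCAM and CDH1 stayed at mean levels of at most 0.023 CPM in every group. The fibroblast markers DCN, LUM, FAP and THY1 had means of at most 0.036 CPM. Apart from the collagens COL1A1, COL1A2 and COL3A1, which stand on that marker list too, the fibroblast marker with the highest level was ACTA2, at 7.28 to 10.6 CPM as group means. The summed epithelial markers ranged from 3279 to 3671 CPM in parental libraries and from 1760 to 1850 CPM in resistant libraries. A lower level in such bulk RNA cannot tell fewer expressing cells from less RNA per cell.

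A collagen molecule is a triple helix of 3 alpha chains, which may be copies of a single chain or products of several genes. In the endoplasmic reticulum the prolyl 4-hydroxylases (P4HA subunits with P4HB) and lysyl hydroxylases (PLOD enzymes) modify the chains, the complex of P3H1, CRTAP and PPIB hydroxylates further prolines, and SERPINH1 (HSP47) holds the folded helix. Outside the cell, BMP1 with its enhancer PCOLCE cuts off propeptides, and LOX and its relatives start cross-linking. In pancreatic cancer most fibrillar collagen is laid down by stromal fibroblasts, and prolyl and lysyl hydroxylase genes are known targets of hypoxia-inducible factors (HIFs).

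The promoter windows of 5 genes on which the oxamate results turn are shown here, since P4HA1, PLOD1, COL5A1, LOX and P4HA2 rose by over 1.5-fold in parental cells. Each runs from 250 bases before to 50 bases after an annotated transcription start, 5′ to 3′ on the gene's strand, from RefSeq on GRCh38.p14. Capitals mark ACGTG or GCGTG on either strand, the core of the HIF response element, with overlapping matches kept.
P4HA1 chr10:73096817-73097116 (-): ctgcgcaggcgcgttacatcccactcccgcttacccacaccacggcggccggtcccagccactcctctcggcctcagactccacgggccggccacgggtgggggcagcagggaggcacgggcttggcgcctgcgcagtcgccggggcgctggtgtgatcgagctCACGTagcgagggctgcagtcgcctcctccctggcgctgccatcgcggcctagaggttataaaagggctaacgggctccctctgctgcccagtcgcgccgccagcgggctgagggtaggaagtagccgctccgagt
PLOD1 chr1:11934467-11934766 (+): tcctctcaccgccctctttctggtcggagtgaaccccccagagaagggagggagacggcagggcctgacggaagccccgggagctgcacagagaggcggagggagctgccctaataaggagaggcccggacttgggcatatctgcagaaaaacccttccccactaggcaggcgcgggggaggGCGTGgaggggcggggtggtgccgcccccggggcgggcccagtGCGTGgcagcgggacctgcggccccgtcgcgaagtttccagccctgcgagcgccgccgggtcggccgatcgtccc
COL5A1 chr9:134641553-134641852 (+): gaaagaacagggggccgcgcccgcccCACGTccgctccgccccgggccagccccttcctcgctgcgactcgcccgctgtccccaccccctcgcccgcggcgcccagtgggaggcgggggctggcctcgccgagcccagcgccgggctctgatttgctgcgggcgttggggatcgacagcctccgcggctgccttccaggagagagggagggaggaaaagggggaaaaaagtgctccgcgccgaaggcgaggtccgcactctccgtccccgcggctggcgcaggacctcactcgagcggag
LOX chr5:122078210-122078509 (-): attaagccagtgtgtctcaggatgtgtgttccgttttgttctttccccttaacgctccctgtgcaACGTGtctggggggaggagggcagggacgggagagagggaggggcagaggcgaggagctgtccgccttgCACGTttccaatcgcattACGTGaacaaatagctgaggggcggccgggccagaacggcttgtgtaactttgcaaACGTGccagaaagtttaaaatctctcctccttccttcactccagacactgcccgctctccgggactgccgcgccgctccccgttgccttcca
P4HA2 chr5:132227042-132227341 (-): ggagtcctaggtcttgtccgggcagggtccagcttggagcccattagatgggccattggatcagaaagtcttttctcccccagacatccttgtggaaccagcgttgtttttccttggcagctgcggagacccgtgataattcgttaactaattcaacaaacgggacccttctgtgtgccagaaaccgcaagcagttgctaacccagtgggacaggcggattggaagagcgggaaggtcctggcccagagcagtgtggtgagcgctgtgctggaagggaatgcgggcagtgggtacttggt

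LOX held 4 matches, at 185, 116, 98 and 42 bases before the start, PLOD1 held 2, P4HA1 and COL5A1 held 1 each, and the P4HA2 window, which is a single annotated start of a gene with several, held 0. RefSeq windows were matched for 31 of the 40 tested members, and 16 of these (51.6%) held the core, against 62.6% of the 10575 windows of tested genes and 48.4% of all 35116 windows. The heat shock pattern GAANNTTC was found in COL7A1, PLOD1 and SERPINH1, or 9.68% of the 31, against 4.66% of the windows of tested genes and 6.77% of all windows. The SMAD pattern GTCTAGAC was in 0 of the 31 and in 0.151% of the windows of tested genes. These matches describe letters in a window and no binding was measured.

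Collagen mRNA in MIAPaCa2 cells was dominated by 6 chains. COL1A2 and COL5A2, the alpha-2 chains of the fibril-forming types I and V, took 49.1% to 51.2% of all collagen reads in a library, and with COL6A1, COL6A2, COL6A3 (the filament-forming type VI) and COL18A1 (the source of endostatin) the share was 88.9% to 90.7%. Per kilobase of exon, COL1A2 averaged 130, 174, 134 and 146 CPM in vehicle-treated parental, oxamate-treated parental, vehicle-treated resistant and oxamate-treated resistant cells. COL5A2 averaged 109, 121, 95.3 and 97.6 CPM per kilobase in the same order.

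The partner chains of these genes were far lower. COL1A1, which in ordinary type I collagen supplies 2 of the 3 chains, averaged 0.149, 0.25, 0.193 and 0.281 CPM per kilobase, so that COL1A2 exceeded it by 490-fold to 973-fold in single libraries. COL5A2 likewise exceeded COL5A1 by 57.3-fold to 105-fold and COL5A3 by 441-fold to 845-fold. The ratio of COL5A2 to COL5A1 was 103 ± 2.47 (SD, n = 3) in vehicle-treated parental cells and 62.2 ± 4.45 after oxamate, with no overlap of the libraries, and 85.8 ± 6.25 and 81.7 ± 3.78 in resistant cells, where the libraries overlapped.

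Other partners were closer to balance. COL4A2 exceeded COL4A1, its partner in the basement membrane network of type IV, by 1.55-fold to 1.68-fold per length in all libraries, and COL6A1 exceeded COL6A2 by 1.00-fold to 1.22-fold. The type IV ratio depends on the merged exon lengths used, 12.971 kb for COL4A2 and 7.525 kb for COL4A1. Without that correction the 2 averaged 57.3 and 21.0 CPM in vehicle-treated parental cells. COL6A2 to COL6A3 rose above the range of vehicle-treated parental libraries (2.20 to 2.35) in every other library (2.69 to 3.13). COL4A1 and COL4A2 lie head to head on chromosome 13 and their annotated spans overlap by 1422 bases, and no source used here states that strand was kept in counting, so reads of the overlap could not be assigned by strand.

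**Figure D1:**
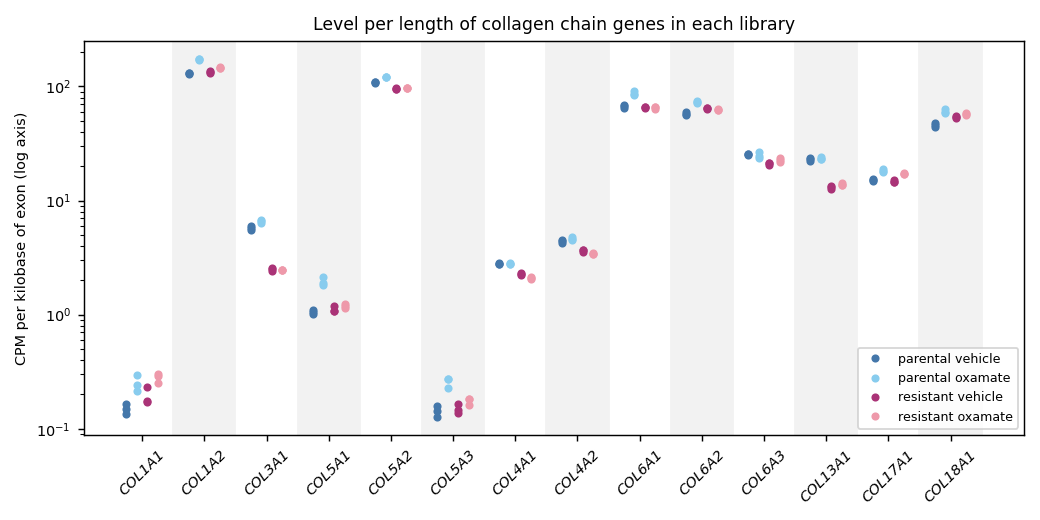
Level of 14 collagen chain genes in each of the 12 libraries, in CPM per kilobase of exon on a log axis, with 1 point per library and colours for the 4 groups. COL1A2 lies near 130 to 174 while COL1A1 lies near 0.149 to 0.281 as group means, and COL4A1 and COL4A2 lie close together.

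The chain plot shows that the gaps of COL1A2 to COL1A1 and of COL5A2 to COL5A1 and COL5A3 are far wider than the spread of the libraries of any group, while COL6A1 and COL6A2 nearly coincide in resistant cells. In total, all 63 members summed to 7054 ± 127 CPM (SD, n = 3) in vehicle-treated parental cells, 9200 ± 68.7 CPM in oxamate-treated parental cells, 6018 ± 71.1 CPM in vehicle-treated resistant cells and 6326 ± 23.8 CPM in oxamate-treated resistant cells. The collagen chains alone gave 2925 ± 42.5, 3548 ± 78.6, 2829 ± 23.8 and 2962 ± 27.8 CPM, and the enzymes and chaperones 4129 ± 84.6, 5652 ± 111, 3190 ± 47.4 and 3363 ± 9.95 CPM.

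The first comparison asked what oxamate did in parental cells. The hydroxylases P4HA1, P4HA2 and PLOD1 rose by 0.79 to 0.83 on the log2 scale, and P4HB, LOX, COL5A1, COL5A3, COL1A1 and COL1A2 rose with them. LOX and COL5A1 rose by more than these hydroxylases on that scale, as did PLOD2, COL9A2 and COL20A1, which lay under 1 CPM. Of the 40 members tested, 29 rose and 0 fell at an adjusted p under 0.05 (edgeR quasi-likelihood test, Benjamini-Hochberg adjustment over 14582 genes), and 11 did not pass. Among all genes tested 28.3% rose and 30.4% fell by the same rule. The median log2 change of the members was 0.375, beside 0.003 over all genes tested. At the threshold of the study's methods, an unadjusted p under 0.05 with a fold change over 1.5, 14 members rose and 0 fell, against 5.69% and 4.19% of all genes. The study applied that threshold to DESeq2 results and it is applied here to edgeR results, so counts by it are not those of the study. In each of the 29, every oxamate-treated library lay above every vehicle-treated library. The same share over all genes was not counted, so this separation adds nothing to the calls.

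Among the prolyl 4-hydroxylases, P4HA1, a catalytic alpha subunit encoded on chromosome 10 (73007217 to 73096974, minus strand, GRCh38), stood at 208, 214 and 222 CPM after vehicle and at 389.9, 391 and 363 CPM after oxamate, a log2 fold change of 0.83 (SE 0.03, adjusted p = 2.35e-11). P4HA2, the second alpha subunit, went from 115, 111 and 113 CPM to 201, 197 and 197 CPM, a log2 fold change of 0.81 (SE 0.02, adjusted p = 4.08e-12). Both genes therefore gained by nearly the same factor, and the ratio of P4HA1 to P4HA2 per kilobase was 2.42 ± 0.106 (SD, n = 3) before and 2.44 ± 0.0916 after. P4HB, the beta subunit and a protein disulfide isomerase that serves many other proteins, rose less, from 1041, 1004 and 1005 CPM to 1417, 1384 and 1356 CPM (log2 fold change 0.45, SE 0.02). P4HA3 stayed low, between 0.322 and 0.548 CPM before and 0.304 and 0.464 CPM after, and its groups overlapped.

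The lysyl hydroxylases split. PLOD1, which acts on the helical part of the chains and whose loss causes kyphoscoliotic Ehlers-Danlos syndrome, stood at 834, 801 and 801 CPM after vehicle and at 1425, 1408 and 1365 CPM after oxamate (log2 fold change 0.79, SE 0.03, adjusted p = 6.12e-12). PLOD3, which can also add sugars to hydroxylysine, moved from 266, 257 and 260.3 CPM to 273, 276 and 268 CPM, a log2 fold change of 0.06 (SE 0.02) that passed the test with all libraries (adjusted p = 0.0342) and that read -0.014 when libraries were scaled by size alone. The ratio of PLOD1 to PLOD3 per kilobase thus went from 3.09 ± 0.029 to 5.10 ± 0.0761 (SD, n = 3). PLOD2, which hydroxylates telopeptides and is a common hypoxia target, was scarcely expressed, at 0.066, 0.101 and 0.129 CPM after vehicle and 0.197, 0.248 and 0.232 CPM after oxamate (log2 fold change 1.24, SE 0.33).

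**Figure D2:**
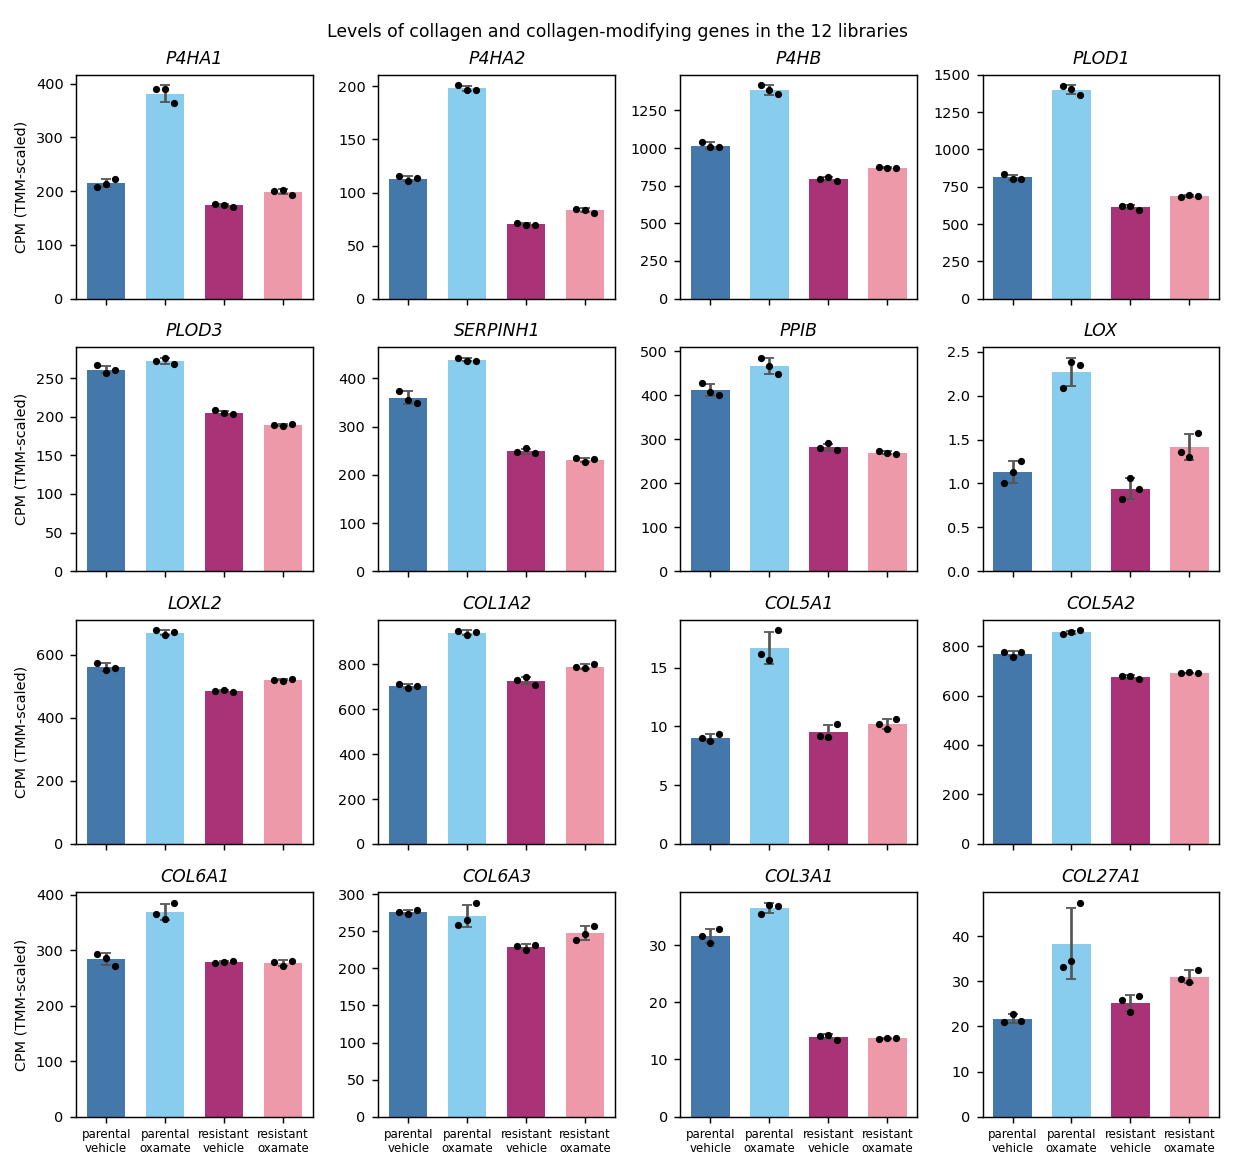
Levels of 16 members in CPM, with a panel per gene: bars give the mean of 3 libraries, error bars ± 1 SD, and points the libraries. In P4HA1, P4HA2 and PLOD1 the oxamate-treated parental libraries stand above all others, and COL3A1 is lower in all resistant libraries than in any parental library.

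The panels of levels also show the smaller gains of the folding machinery. SERPINH1, the collagen-specific chaperone, rose from 375, 356 and 348 CPM to 442, 436 and 437 CPM (log2 fold change 0.28, SE 0.03). CRTAP and PPIB, the partners of P3H1, rose by 0.22 (SE 0.03) and 0.18 (SE 0.03) on the log2 scale, and P3H1 itself by 0.13 (SE 0.03). Their changes were smaller than those of the 4-hydroxylases, and the call of P3H1 was lost when libraries were scaled by size alone.

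Outside the cell, LOX, the founding lysyl oxidase, rose from 1.01, 1.13 and 1.25 CPM to 2.09, 2.38 and 2.35 CPM (log2 fold change 1.02, SE 0.12, adjusted p = 3.28e-06). LOXL2, which was 407-fold to 864-fold higher than LOX per kilobase in single libraries, rose from 573, 550.4 and 559 CPM to 677, 664 and 670.5 CPM (log2 fold change 0.26, SE 0.02). LOX thus changed more and LOXL2 remained the main lysyl oxidase mRNA. BMP1, the procollagen C-proteinase, rose from 52.5, 51.5 and 50.2 CPM to 63.0, 61.0 and 62.3 CPM (log2 fold change 0.27, SE 0.03), and PCOLCE, its enhancer, from 4.54, 4.36 and 3.83 CPM to 5.69, 5.84 and 6.12 CPM (0.46, SE 0.08). LOXL3 and LOXL4 did not pass the test, at 0.23 to 0.483 CPM over the parental libraries.

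Of the collagens, all 8 fibril-forming chains tested rose, of which COL11A2 depended on 1 library. COL1A2 went from 711, 694 and 705 CPM to 950, 930 and 942 CPM (log2 fold change 0.42, SE 0.02, adjusted p = 7.59e-10). COL1A1 went from 1.10, 1.00 and 0.901 CPM to 1.43, 1.64 and 1.99 CPM (0.74, SE 0.15), and COL5A1, a chain that starts fibrils, from 9.05, 8.73 and 9.36 CPM to 16.2, 15.6 and 18.2 CPM (0.89, SE 0.06, adjusted p = 8.15e-09). COL5A3 went from 0.981, 0.781 and 0.885 CPM to 1.68, 1.68 and 1.39 CPM (0.83, SE 0.13). The low chains COL1A1, COL5A1 and COL5A3 thus gained more on the log2 scale than the abundant COL1A2, while the abundant COL5A2 gained only 0.15 (SE 0.02). COL3A1, the type III chain, gained 0.21 (SE 0.04).

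Type VI and type IV chains behaved unevenly. COL6A1 rose from 293, 286 and 272 CPM to 366, 356 and 385 CPM and COL6A2 from 263, 255 and 249 CPM to 322, 313 and 327 CPM, log2 fold changes of 0.38 (SE 0.03) and 0.33 (SE 0.03). COL6A3, the third type VI chain, stood at 277, 274 and 279 CPM before and 259, 266 and 288 CPM after, with overlapping groups. None of the 3 type IV chains tested passed: COL4A1 had a log2 fold change of -0.002 (SE 0.03), COL4A2 of 0.07 (SE 0.03), and COL4A4 stayed near the floor. COL18A1 rose by 0.39 (SE 0.03) and the transmembrane collagen COL17A1, a hemidesmosome protein, by 0.27 (SE 0.03), whereas the transmembrane COL13A1 did not pass (0.03, SE 0.03).

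Several of the larger changes leaned on a single library. COL11A2 stood at 0.952, 0.984 and 0.917 CPM after vehicle and at 1.07, 1.31 and 2.67 CPM after oxamate, and its log2 fold change of 0.85 became 0.32 (adjusted p = 0.157) without the third oxamate-treated library, that with the most MALAT1. COL7A1, the anchoring fibril chain, stood at 2.32, 2.61 and 2.88 CPM and at 3.33, 3.03 and 5.67 CPM, and its change of 0.66 became 0.31 (adjusted p = 0.0927). COL9A2 went from 1.12 to 0.67 (adjusted p = 0.047) and COL27A1, at 33.2, 34.5 and 47.4 CPM after oxamate, from 0.83 to 0.64 (adjusted p = 4.18e-08). The part of nuclear RNA in these 4 was not tested. P4HA1, P4HA2 and PLOD1 were as high in the other oxamate-treated libraries as in the third.

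**Figure D3:**
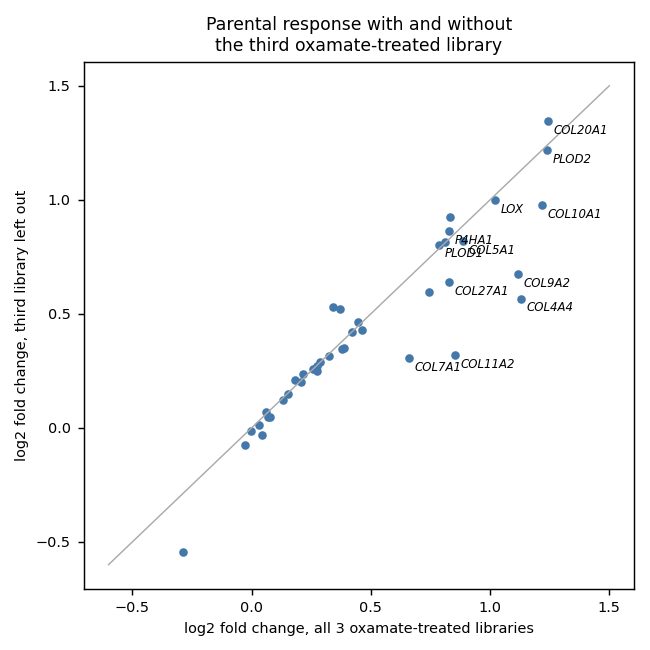
Log2 fold change after oxamate in parental cells for the 40 members tested, with all 3 oxamate-treated libraries on the horizontal axis and without the third on the vertical axis; the line marks equal values. COL11A2, COL7A1, COL9A2, COL27A1 and COL4A4 lie below the line and most other members lie on it.

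As the plot with and without the third library shows, 28 members passed the test without it, 27 higher and 1 lower. The member that then read as lower was COL6A3, at a log2 fold change of -0.075. With the third vehicle-treated resistant library left out as well, 29 passed, 28 higher and 1 lower.

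The second comparison asked the same of oxamate-resistant cells, where the changes were smaller. LOX, P4HA2, COL17A1, P4HA1, PLOD1 and P4HB rose, and PLOD3, SERPINH1, COL4A1 and COL26A1 fell. Of the 40 members 11 rose and 4 fell at an adjusted p under 0.05, and 25 did not pass, against 9.01% of all genes that rose and 12.5% that fell. The split was 13 and 2 with upper-quartile factors and with library size alone. The median log2 change of the members was 0.107, beside 0.0 over all genes tested. At the study threshold only LOX rose and 0 members fell, against 2.23% and 0.274% of all genes.

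P4HA2 stood at 71.0, 69.4 and 69.6 CPM after vehicle and at 84.7, 83.7 and 81.0 CPM after oxamate (log2 fold change 0.25, SE 0.03, adjusted p = 1.62e-05). P4HA1 went from 176, 174 and 171 CPM to 200.5, 203 and 194 CPM (0.20, SE 0.03), PLOD1 from 619, 621 and 596 CPM to 684, 696 and 687 CPM (0.17, SE 0.03), and P4HB from 796, 809 and 784 CPM to 871, 870.3 and 869 CPM (0.13, SE 0.02). These 4 genes passed the test and so rose in resistant cells as well, while PLOD2 (0.42, SE 0.25) and P4HA3 (-0.26, SE 0.38) did not pass it. LOX rose from 0.82, 1.06 and 0.941 CPM to 1.36, 1.30 and 1.58 CPM (log2 fold change 0.59, SE 0.14, adjusted p = 0.00912).

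Of the abundant chains, COL1A2 rose from 732, 741 and 709 CPM to 787, 783 and 800.4 CPM (0.12, SE 0.02) and COL17A1 from 87.9, 88.05 and 91.4 CPM to 105, 103 and 104 CPM (0.22, SE 0.03). COL5A2 (0.03, SE 0.02), COL6A1 (-0.01, SE 0.03), COL6A2 (-0.04, SE 0.03) and COL5A1 (0.10, SE 0.07) did not pass the test. COL18A1 (0.09, SE 0.03, adjusted p = 0.0553) and the less abundant COL27A1 (0.30, SE 0.10, adjusted p = 0.0525) narrowly missed it. Both were called higher with upper-quartile factors, a mean count of at least 25 and only the groups compared, and COL18A1 also with DESeq2. PLOD3 fell from 208, 205 and 203 CPM to 189.9, 187 and 190.3 CPM, a log2 fold change of -0.12 (SE 0.02), and SERPINH1 fell from 248, 255 and 244 CPM to 234, 226 and 233 CPM (-0.11, SE 0.03). The direction for both was thus opposite to that in parental cells, although the rise of PLOD3 there depended on the scaling. In 6 fits that each left out a library, COL4A1 and COL26A1 kept their call in only 1 fit each. COL1A1, COL6A3 and P3H1 kept it in 2 fits, SERPINH1 in 4 and LOX in 5. With DESeq2 COL4A1 (adjusted p = 0.0986) and COL26A1 (adjusted p = 0.0756) also lost their call, as with upper-quartile factors and library size alone. The number of changed members was 9 without the second vehicle-treated or without the third oxamate-treated library, and 21 without both libraries that stood apart in MALAT1. Without the third vehicle-treated library COL26A1 (-0.209, adjusted p = 0.0513) and COL4A1 (-0.115, adjusted p = 0.0634) lost their call and CRTAP (-0.09, adjusted p = 0.0421) gained one.

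**Figure D4:**
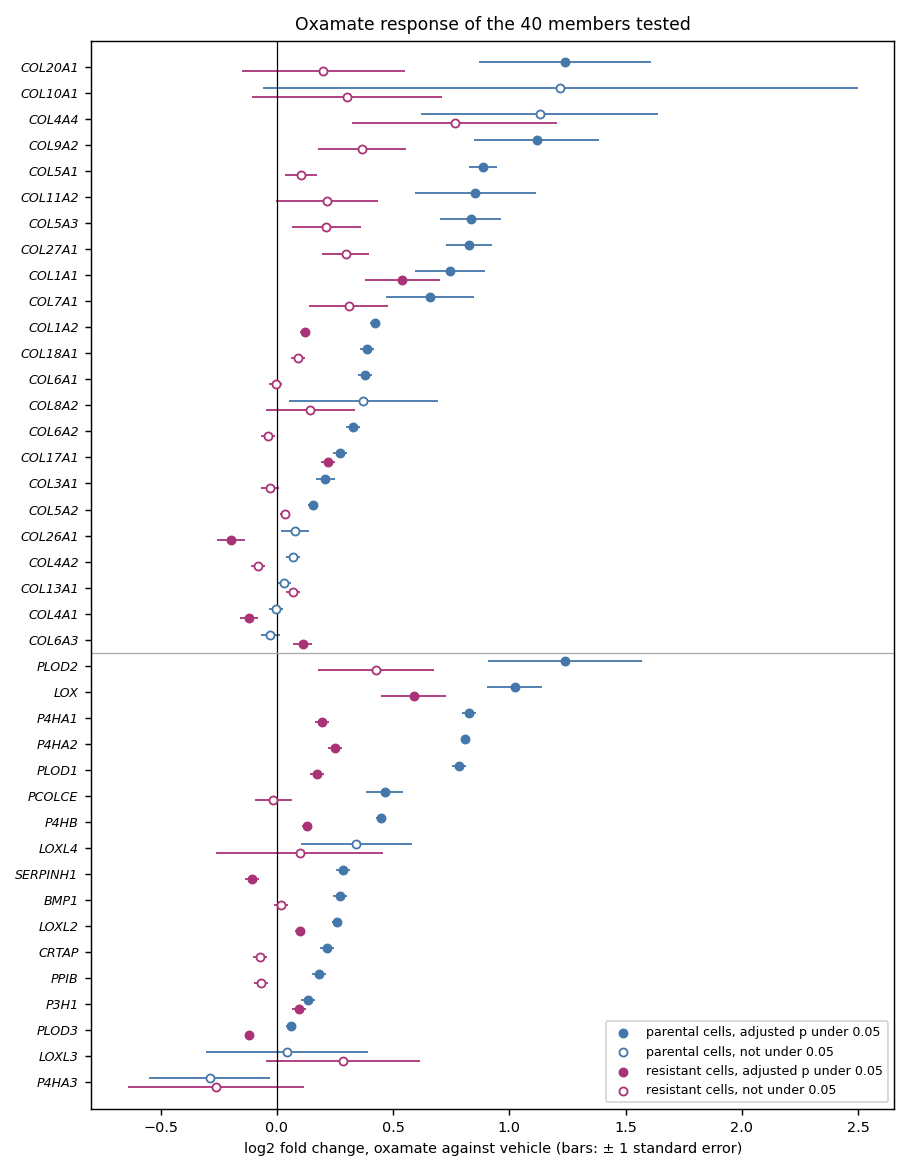
Log2 fold change after oxamate for the 40 members tested in parental (blue) and resistant (purple) cells, with bars of ± 1 standard error; filled points have an adjusted p under 0.05. Enzymes and chaperones are in the lower block and collagen chains in the upper, and in P4HA1, P4HA2 and PLOD1 the parental points lie near 0.8 and the resistant points near 0.2.

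The difference between these responses was tested directly as a contrast of the fit. It was negative, meaning a smaller or opposite response in resistant cells, for 22 members and positive for 1 at an adjusted p under 0.05, against 21.4% and 22.7% of all genes, and 17 members did not pass. The median difference was -0.298, beside -0.007 over all genes. Among the hydroxylases that passed, the largest were those of P4HA1 (-0.63, SE 0.05, adjusted p = 4.72e-08), PLOD1 (-0.61, SE 0.04, adjusted p = 7.66e-09) and P4HA2 (-0.56, SE 0.04, adjusted p = 1.54e-08), and P4HB differed by -0.32 (SE 0.03). SERPINH1 differed by -0.39 (SE 0.04) and PCOLCE by -0.48 (SE 0.11). As the plot of both responses shows, LOX rose in both populations and its difference of -0.43 (SE 0.19) did not pass the test.

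Among the collagens that passed, COL5A1 differed most (-0.78, SE 0.09, adjusted p = 4.86e-06). COL6A1 (-0.38, SE 0.05), COL6A2 (-0.36, SE 0.04), COL1A2 (-0.30, SE 0.03) and COL18A1 (-0.30, SE 0.04) followed among the abundant chains. COL5A3 differed by -0.62 (SE 0.20, adjusted p = 0.0199), a call that was lost with DESeq2 and in 3 of 12 fits without a library. COL6A3 was the member with a positive difference (0.14, SE 0.05), and its call was lost in 9 of 12 such fits. COL17A1 (-0.05, SE 0.04), COL13A1 (0.04, SE 0.05) and P3H1 (-0.04, SE 0.04) did not pass, which does not show that their responses were equal. With library size alone, which moved the median over all genes by 0.105, 17 members were negative and 2 positive.

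The third comparison set resistant against parental cells after vehicle. Collagen-modifying enzymes were lower in resistant cells and the chains were mixed: P4HA2, PPIB, SERPINH1, PLOD1, COL3A1 and COL13A1 were lower, while PLOD2, COL8A2, COL9A2, COL11A2 and COL7A1 were higher. At an adjusted p under 0.05, 10 members were higher and 20 lower, and 10 did not pass, against 38.4% of all genes higher and 37.3% lower. By class, 1 enzyme was higher and 14 lower, and 9 chains were higher and 6 lower. The median over the members was -0.194, beside 0.025 over all genes. At the study threshold 7 were higher and 5 lower, against 17.2% and 6.14% of all genes.

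These directions depend on scaling more than those after oxamate. With library size alone the median over all genes moved by 0.219 and the split became 17 higher and 12 lower, with 10 enzymes lower. The 14 enzymes lower under TMM were P4HA1, P4HA2, P4HA3, P4HB, PLOD1, PLOD3, CRTAP, P3H1, PPIB, SERPINH1, BMP1, PCOLCE, LOXL2 and LOXL4, of which BMP1 and P3H1 lost their call with library size alone and PCOLCE and LOXL2 turned in sign. With all scalings P4HA2 (-0.69, SE 0.03, and -0.47 with library size alone), PPIB (-0.55, SE 0.03, and -0.33), SERPINH1 (-0.53, SE 0.03, and -0.31) and PLOD1 (-0.41, SE 0.03, and -0.19) were lower in resistant cells. P4HA1 was lower by less, at -0.31 (SE 0.03) and -0.09, and the ratio of P4HA1 to P4HA2 per kilobase, which no scaling changes, was 3.15 ± 0.0377 (SD, n = 3) in resistant against 2.42 ± 0.106 in parental cells with no overlap.

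Among the chains COL3A1 was most reduced, at 31.7, 30.4 and 32.9 CPM in parental and 14.1, 14.3 and 13.5 CPM in resistant cells, a log2 fold change of -1.18 (SE 0.04, adjusted p = 4.17e-13). COL5A2, its tail-to-tail neighbour on chromosome 2 with 19.1 kb between the gene ends, stood at 776, 757 and 774 CPM and at 678, 680.2 and 667 CPM (-0.19, SE 0.02), a difference that read 0.031 with library size alone. The neighbours thus differed in size of change. COL13A1 went from 75.9, 76.6 and 71.7 CPM to 42.8, 43.8 and 41.3 CPM (-0.81, SE 0.03, adjusted p = 3.62e-12). COL4A1 and COL4A2 were lower by -0.30 (SE 0.03) and -0.28 (SE 0.03), calls that were lost with library size alone. COL1A2 did not pass (0.05, SE 0.02, adjusted p = 0.066) but was called higher without the third resistant library (0.07, adjusted p = 0.016), with upper-quartile factors (0.13), library size alone (0.27), a mean count of at least 25 (0.07) and only the groups compared (0.06). Neither COL6A1 nor COL17A1 passed, and COL18A1 was higher by 0.22 (SE 0.03). The other type VI chains tested went opposite ways. COL6A2 was higher by 0.15 (SE 0.03) and COL6A3 was lower by -0.27 (SE 0.04), the latter a call lost with library size alone. COL1A1 was higher by 0.36 (SE 0.16, adjusted p = 0.0493), a call lost in 3 of 6 fits without a library, and its difference was 0.20 (adjusted p = 0.29) without the third resistant library. With DESeq2 (adjusted p = 0.0962) and limma-voom (adjusted p = 0.0689) COL1A1 lost its call too. PCOLCE, among the lower enzymes, was called in only 2 of 6 such fits and not without the third resistant library (-0.20, adjusted p = 0.0656). Its call was also lost with DESeq2 (adjusted p = 0.0856), upper-quartile factors (adjusted p = 0.167) and only the groups compared (adjusted p = 0.0515).

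Genes with low counts made up most of the higher members. COL8A2, a short-chain collagen of Descemet's membrane, stood at 0.132, 0.0812 and 0.113 CPM in parental and 0.558, 0.655 and 0.633 CPM in resistant cells (log2 fold change 2.48, SE 0.24). COL8A2 passed the filter only through the resistant libraries, so its place here follows in part from the filter and its values are a description. COL9A2 went from 0.198, 0.264 and 0.209 CPM to 1.24, 1.04 and 1.13 CPM (2.33, SE 0.23), and COL11A2 from 0.952, 0.984 and 0.917 CPM to 2.55, 2.18 and 3.34 CPM (1.49, SE 0.24). COL7A1 went from 2.32, 2.61 and 2.88 CPM to 5.65, 5.39 and 7.70 CPM (1.28, SE 0.19). None of these groups overlapped, and in COL11A2 and COL7A1 the highest resistant library was again that with the most MALAT1. PLOD2 was 0.262, 0.369 and 0.377 CPM in resistant cells (1.81, SE 0.30).

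COL10A1, a hypertrophic cartilage collagen, passed the filter through the resistant libraries alone, so its place among the higher members follows in part from the filter and its counts are given as a description. It had 26 counts over the 3 resistant against 1 count over the 3 parental vehicle-treated libraries, a depth-corrected ratio of 39.6 (95% exact interval 6.5 to 1620). After oxamate it had 30 against 2 counts, a ratio of 16.3 (4.13 to 141). Both intervals cover counting error only and not the spread between libraries. COL20A1 was also higher, by 1.12 (SE 0.38), but lost its call without the first or the third resistant library (0.91, adjusted p = 0.0726, without the third). P4HA3 (-1.10, SE 0.30) and LOXL4 (-1.06, SE 0.29) were lower, all at under 0.6 CPM.

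**Figure D5:**
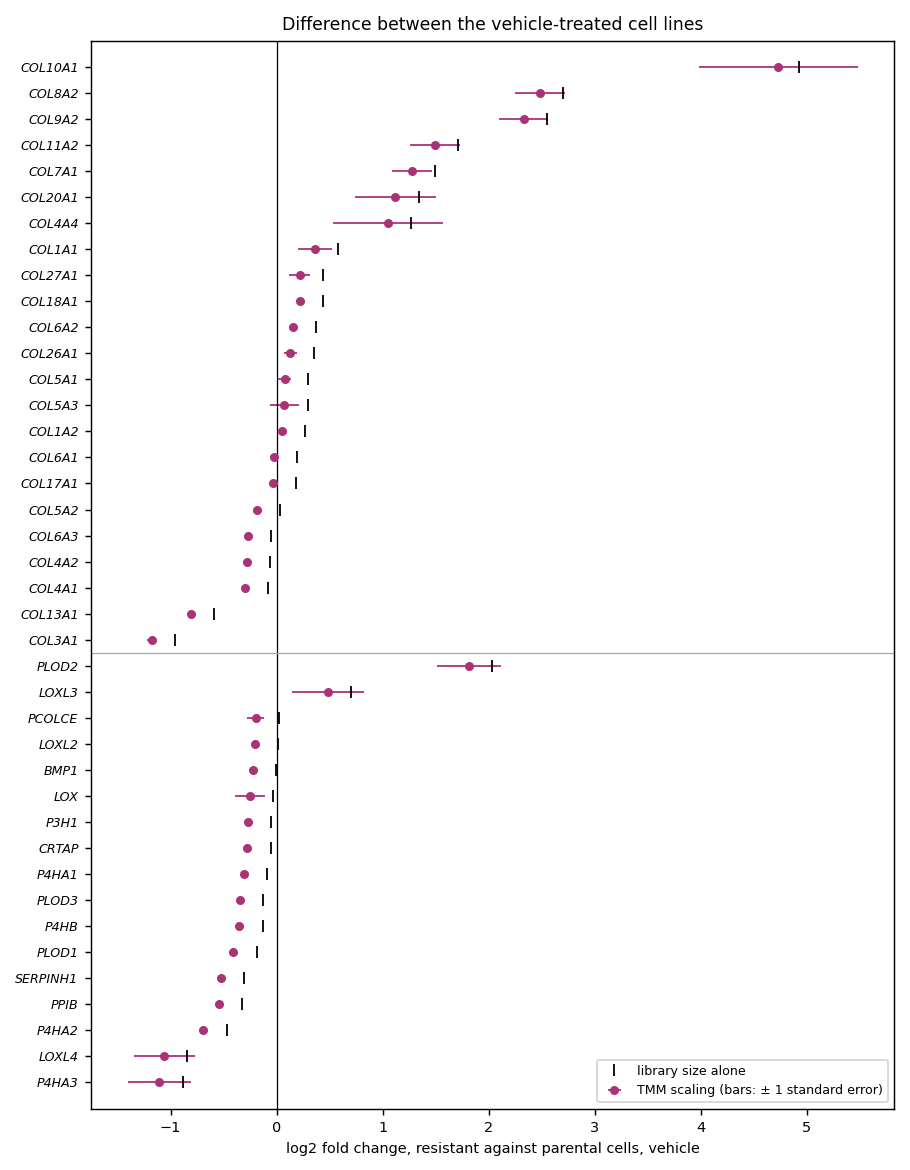
Log2 fold change of vehicle-treated resistant against parental cells for the 40 members tested under TMM scaling (points, bars ± 1 standard error) and with library size alone (ticks); enzymes and chaperones are in the lower block. Every tick lies to the right of its point, P4HA2, PPIB, SERPINH1, COL3A1 and COL13A1 stay below 0, and LOXL2 and PCOLCE cross it.

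The plot of the vehicle-treated populations under both scalings shows a shift to the right for every member. The fourth comparison set the populations side by side after oxamate, and shares its libraries with the comparisons above. P4HA2 (-1.25, SE 0.03), PLOD1 (-1.02, SE 0.03), P4HA1 (-0.94, SE 0.03), SERPINH1 (-0.92, SE 0.03), PPIB (-0.79, SE 0.03) and P4HB (-0.67, SE 0.02) were lower in resistant cells, and COL3A1 (-1.42, SE 0.04), COL13A1 (-0.77, SE 0.03) and COL5A1 (-0.71, SE 0.06) led the lower chains. In all, 6 members were higher and 30 lower, and 4 did not pass, against 40.6% and 39.7% of all genes. The median was -0.389, beside 0.015. At the study threshold 6 were higher and 13 lower, against 22.9% and 11.4% of all genes. With library size alone the median over all genes moved by 0.325 and 15 members were higher and 18 lower, 12 of them enzymes. The 6 higher members were COL7A1, COL8A2, COL9A2, COL10A1, COL11A2 and PLOD2. Without the third oxamate-treated parental library COL11A2 moved from 0.85 to 1.39, COL7A1 from 0.93 to 1.28, COL9A2 from 1.58 to 2.02 and COL27A1 from -0.31 to -0.13, all still called. Without it COL17A1 (-0.064, adjusted p = 0.0578), COL18A1 (-0.05, adjusted p = 0.133), COL26A1 (-0.118, adjusted p = 0.141) and P4HA3 (-0.826, adjusted p = 0.0597) lost their call, and COL4A4 (1.25, adjusted p = 0.034) gained one.

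The other 23 members were not tested. SPARC, a collagen-binding matrix protein abundant in stroma, had 3 to 15 counts per library, COL9A3 had 1 to 13, and the remaining 21 never exceeded 10. COL22A1 and COL9A1 had 0 counts in all libraries. The others were LOXL1 and the chains COL2A1, COL4A3, COL4A5, COL4A6, COL6A5, COL6A6, COL8A1, COL11A1, COL12A1, COL14A1, COL15A1, COL16A1, COL19A1, COL21A1, COL23A1, COL24A1, COL25A1 and COL28A1. COL11A1 and COL12A1, chains typical of activated stromal fibroblasts, had at most 2 and 3 counts in a library.

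Other genes of the pathway were taken from lists. Among all genes, 28.3% rose and 30.4% fell after oxamate in parental cells. Between vehicle-treated populations 38.4% of all genes were higher and 37.3% lower in resistant cells. Of 11 tested genes of procollagen modification outside the rule, 4 rose and 2 fell after oxamate in parental cells, and 2 were higher and 7 lower in vehicle-treated resistant cells. FKBP10, a collagen prolyl isomerase, responded to oxamate by 0.40 (log2) in the parental and by -0.03 in the resistant population, a difference of -0.43. COLGALT1, the collagen galactosyltransferase, and P3H3 were lower by -0.48 and -0.56 in vehicle-treated resistant cells. Of 10 genes of procollagen export, 4 rose and 4 fell after oxamate in parental cells, and 0 were higher and 6 lower in resistant cells, among them SEC24D (-0.93), CREB3L1 (-0.54) and CREB3L2 (-0.46).

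Of 8 tested hypoxia targets outside the members, 7 rose and 1 fell after oxamate in parental cells, and 4 rose and 4 fell in resistant cells, with medians of 0.658 and 0.017. The shares over all genes were 28.3% and 30.4% in parental cells and 9.01% and 12.5% in resistant cells. SLC2A1, the glucose transporter, rose by 0.63 in parental and fell by 0.20 in resistant cells, and ADM changed by 0.31 and -1.96. ANKRD37 (0.69 and -1.405) and VEGFA (0.50 and -0.315) likewise rose in parental and fell in resistant cells. NDRG1 (0.88 and 0.23), PDK1 (0.83 and 0.53) and CA9 (1.10 and 2.56) rose in both populations. EGLN3 fell in parental and rose in resistant cells (-1.07 and 0.975). CA9 averaged 0.017 CPM in vehicle-treated resistant cells, under the floor of 3 counts, and its change there had an SE of 0.84. NDRG1, PDK1, CA9, VEGFA and EGLN3 were added after their values were seen.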

How the data were processed

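RNA-seq of 12 MIAPaCa2 samples was analysed. The authors enriched mRNA with oligo(dT), aligned reads to UCSC transcripts with Bowtie2 2.1.0 and deposited expected counts per gene symbol from RSEM 1.2.15, without normalization (tools and build hg38 per the labels' processing notes); 11.6% of values were not whole. Reads shared by near-identical transcripts were split by RSEM. Here the expected counts were rounded and fitted by edgeR 4.0.16 under R 4.3.3 (filterByExpr, TMM, glmQLFit and glmQLFTest, 4 group means over all 12 samples, Benjamini-Hochberg over 14582 genes). Changed means an adjusted p under 0.05, and the study threshold is an unadjusted p under 0.05 with a fold change over 1.5. Library totals ran from 46698729 to 114222169.

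Levels per length used merged exons of protein-coding GENCODE transcripts on GRCh38, the build named in the labels, and promoters came from RefSeq GRCh38.p14. Alternatives were RLE and upper-quartile factors, library size alone, other filters, unrounded counts, DESeq2 1.42.0, limma-voom (limma 3.58.1), a replicate block, fits on the groups compared, and left-out libraries. Leaving out both libraries rich in MALAT1 was added after seeing the data. Tests were checked on simulated counts. Deviations of libraries with the same replicate number correlated at -0.074 to 0.0943, and the numbers were not used as pairs.

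Members and lists were chosen with earlier results of these data known. Values per library are given for tested enzymes, the 8 chains highest per kilobase and up to 12 chains past the study threshold with the smallest p, and at most 3 genes per other list. COL4A1, COL4A2, COL4A4, COL26A1, ITGA2, NDRG1, PDK1, CA9, VEGFA and EGLN3 are extra to this rule, chosen once values had been seen.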

Additional observations from a re-analysis of the deposited data

Results flagged for a closer look

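The oxamate responses of parental and resistant cells differed for 23 members by the contrast of the edgeR fit (adjusted p under 0.05). Values are the log2 response of resistant minus that of parental cells. Among hydroxylases they were P4HA1 (-0.63), PLOD1 (-0.61), P4HA2 (-0.56), P4HB (-0.32) and PLOD3 (-0.18). The folding proteins gave SERPINH1 (-0.39), CRTAP (-0.29) and PPIB (-0.25), and the extracellular enzymes gave PCOLCE (-0.48), BMP1 (-0.26) and LOXL2 (-0.16). The fibril-forming chains gave COL5A1 (-0.78), COL5A3 (-0.62), COL27A1 (-0.53), COL1A2 (-0.3), COL3A1 (-0.24) and COL5A2 (-0.12), and the other chains gave COL6A1 (-0.38), COL6A2 (-0.36), COL18A1 (-0.3), COL26A1 (-0.28) and COL4A2 (-0.15). COL6A3 (0.14) was the positive value, and its call was lost in 9 of 12 fits that left out a library. The calls of COL26A1, COL3A1, COL4A2, COL5A2 and LOXL2 were lost with library size alone, and MALAT1 was higher in both oxamate-treated groups than in vehicle-treated parental cells, the part of which was not tested.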

How the results depend on the processing

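Counts of changed members stayed within 1.5 times across scalings, filters, rounding, DESeq2 and limma-voom in all 5 comparisons. Leaving out a library in turn gave 28 to 30 changed members after oxamate in parental cells, 9 to 14 in resistant cells (15 with all libraries, and 21 without both libraries rich in MALAT1), 28 to 31 between vehicle-treated and 33 to 36 between oxamate-treated populations, and 20 to 24 for the difference between responses. At the study threshold the ranges were 11 to 14, 0 to 3, 11 to 14 and 19 to 22. In resistant cells the single member past that threshold was lost (0) with RLE factors and DESeq2, and with no filter beyond a total above 0 LOX also missed it while 1 member, COL6A6 at no more than 4 counts per library, fell past it. In resistant cells 3 passed without both libraries rich in MALAT1. With a mean count of at least 25, 6 rather than 12 members passed it between vehicle-treated populations, since fewer genes were tested. Signs turned with library size alone for COL17A1 (0.185), COL5A2 (0.031), COL6A1 (0.191), LOXL2 (0.011) and PCOLCE (0.021) between vehicle-treated populations, for COL17A1 (0.238), COL18A1 (0.244), COL1A2 (0.073), COL26A1 (0.179), COL27A1 (0.01), COL5A2 (0.017), COL6A2 (0.113), COL6A3 (0.193) and P3H1 (0.015) between oxamate-treated populations, and for PLOD3 (-0.014) after oxamate in parental cells. With upper-quartile factors they turned for COL17A1 (0.001) and COL18A1 (0.006) between oxamate-treated populations. Library size alone shifts all genes together, and what made the scaling factors differ between populations was not tested.

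The labels do not say whether replicate numbers pair the libraries, and the main fit did not use the numbers as pairs. With the replicate block 29, 18, 30, 35 and 23 members changed in the 5 comparisons, and 14, 1, 12 and 19 passed the study threshold. In that fit COL18A1, COL27A1 and CRTAP gained a call after oxamate in resistant cells and COL27A1 between vehicle-treated populations, and COL1A1 (adjusted p = 0.0508) and COL26A1 (0.0561) lost theirs between vehicle-treated and oxamate-treated populations. Depth limits COL4A4, COL8A2, COL10A1, COL20A1, PLOD2, P4HA3, LOXL3 and LOXL4, which lay under 1 CPM in all libraries.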

Other observations

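The following counts come from lists not independent of earlier results, and stand beside 38.4% of all genes that were higher and 37.3% that were lower in vehicle-treated resistant cells. Of 7 receptor genes tested, 3 were higher and 4 lower in vehicle-treated resistant cells. ITGA1 and ITGA2, both among the higher genes, passed the filter only through the resistant libraries. Their place there follows in part from the filter. ITGA1, a collagen-binding integrin, averaged 0.015 CPM in vehicle-treated parental cells, under the floor of 3 counts, and 7.57 CPM in resistant cells, whereas DDR2, a kinase receptor for fibrillar collagen, and ADGRG1, a receptor for COL3A1, were lower in resistant cells by -0.56 and -1.24 on the log2 scale. Of 6 collagenases and inhibitors tested, 2 were higher and 2 lower. TIMP1, a collagenase inhibitor, averaged 834 and 1140 CPM in parental cells without and with oxamate and 451 and 431 CPM in resistant cells, while the interstitial collagenase MMP1 was higher in resistant cells (log2 fold change 1.72).

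Of 4 tested collagen-binding matrix genes, 3 were higher in vehicle-treated resistant cells. FN1, fibronectin, averaged 0.339 CPM in parental and 19.2 CPM in resistant cells, and TGFBI was higher by 1.02 on the log2 scale. Of 11 genes of the TGF-beta pathway, 7 were higher and 2 lower. The ligand TGFB2 averaged 0.066 against 4.53 CPM and the receptor TGFBR2 0.072 against 8.94 CPM. Both passed the filter only through the resistant libraries. Their place among the higher genes follows in part from the filter, and their values are a description.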
